A study of Mus musculus with 6 samples.

Results

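Map3k6 encodes ASK2, one of 3 apoptosis signal-regulating kinases, and the set described here is Map3k6 with 9 further genes of the cascade it belongs to. The 10 genes were chosen by symbol and were all found among the 24532 genes of the deposited table. Map3k6 was picked because it passed the test between the groups of this same study, so its difference is given as a description. The other 9 were taken for their place in the cascade, with the results of these data already known. They are Map3k5 (ASK1) and Map3k15 (ASK3), the kinases Map2k3, Map2k6, Map2k4 and Map2k7, and the end kinases Mapk14, Mapk12 and Mapk8.

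The libraries were made from poly(A)-selected RNA of whole gastrocnemius, the large calf muscle, of C57BL/6 mice aged 12 weeks. All 6 libraries came from mice with the allele written USP21 flox/flox, and 3 of them, the knockouts, were from mice that also carried Ckmm-Cre, a recombinase driven by the promoter of muscle creatine kinase. The 3 controls had the floxed alleles without Cre, and their genotype is entered as Litter. That promoter works in striated muscle fibres, so the other cells of whole muscle are not its target, and the deleted exons are not given in the labels.

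Stress kinase cascades pass a signal down through kinases in tiers, in which an upstream kinase of the MAP3K class phosphorylates one of the MAP2K class, and that one phosphorylates a MAP kinase of the p38 or JNK type. ASK1 and ASK2 respond to oxidants and other stresses, form complexes with each other, and are held in check by thioredoxin and 14-3-3 proteins. In skeletal muscle, p38 kinases act in differentiation, in the response to contraction and in the control of metabolic genes. Signalling through the cascade is set by phosphorylation, which transcript levels do not show.

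The p38 and JNK types of the final tier differ in the motif that the MAP2K enzymes phosphorylate. The coding stretch around it is therefore shown for the 3 MAP kinases. The sequences are from GENCODE M21 transcripts (GRCm38), read 5′ to 3′, and capitals mark the codons of that motif, threonine-glycine-tyrosine in the p38 kinases and threonine-proline-tyrosine in JNK.
Mapk14: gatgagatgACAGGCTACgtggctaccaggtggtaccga
Mapk12: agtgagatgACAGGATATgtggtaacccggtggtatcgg
Mapk8: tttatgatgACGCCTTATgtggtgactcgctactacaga

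The 3 ASK genes are close relatives, so their activation segment is shown to let their likeness be seen. Each line gives 45 bases of the coding sequence (codons 804 to 818 of Map3k6, 842 to 856 of Map3k5 and 809 to 823 of Map3k15), and capitals mark positions at which the 3 genes do not all have the same base.
Map3k6: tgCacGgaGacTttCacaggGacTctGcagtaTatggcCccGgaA
Map3k5: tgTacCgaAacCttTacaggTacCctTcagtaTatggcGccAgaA
Map3k15: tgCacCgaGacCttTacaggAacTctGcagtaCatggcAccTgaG
Of the 45 bases, 33 (73.3%) were identical in all 3, 35 in Map3k6 and Map3k5, and 37 in Map3k6 and Map3k15. The stretch was placed by a pattern of encoded residues that all 3 genes match, so part of this identity follows from the choice. Over whole transcripts, the longest identical run shared by Map3k6 and Map3k15 was 21 bases, and that shared by Map3k6 and Map3k5 was 14 bases. Among all pairs of the 10 genes the longest was 23 bases, between Map2k3 and Map2k6. Read length is not given in the sources used here.

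Total counts ran from 48658436 to 67332846 per library, and 14109 genes had enough reads to be tested, the 10 kinase genes among them. Usp21 stood at 19.3, 19.3 and 19.2 CPM (counts scaled to library size) in controls 1 to 3, against 9.08, 7.19 and 7.47 CPM in knockouts 1 to 3, so the libraries matched their labels. Markers of muscle fibres (Ckm, Acta1 and 8 others) summed to between 160300 and 187300 CPM (here without TMM scaling) among controls, against 170600 to 191700 among knockouts. None of the 8 marker lists, for fibres and for other cell types, had summed levels that separated the groups. Control 3 stood apart in slow-fibre genes, which summed to 130 there against 1336 and 1334 in controls 1 and 2 and between 614 and 1571 in knockouts.

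Map3k6 was 1.93 times as high in knockout as in control muscle by mean CPM, and it was the 1 member of the 10 past the threshold. It had 22.2, 25.3 and 26.5 CPM in controls 1 to 3 and 51.0, 47.7 and 44.2 CPM in knockouts 1 to 3. Every knockout was above every control, and the lowest knockout exceeded the highest control by more than the whole range within either group. The means were 24.6 ± 2.22 CPM in controls, against 47.6 ± 3.41 CPM in knockouts (SD, n = 3 each), with a log2 fold change of 0.95 (SE 0.097). In the deposited FPKM values, which also scale to gene length, the means were 5.74 ± 0.490 and 10.6 ± 0.852 (SD, n = 3 each), a ratio of 1.84. Fits on these FPKM values did not call Map3k6 (limma adjusted p = 0.1102 on log2 of FPKM + 1, and 0.1008 on log2 of FPKM + 0.1).

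The value that chose Map3k6 was its adjusted p of 0.0421 by edgeR's quasi-likelihood test with Benjamini-Hochberg adjustment, the fifth smallest p of the comparison. Over all tested genes, 5 (0.0354%) were called higher and 3 (0.0213%) lower, and the first gene outside the threshold had an adjusted p of 0.121. In size the Map3k6 change was less unusual, since 425 tested genes had a larger absolute log2 fold change. Between libraries its level varied by 9.03% in controls and 7.15% in knockouts (coefficient of variation), and the median over all tested genes was 11.2% and 10.95%. The call was lost without control 1 (edgeR adjusted p = 0.195), control 2 (0.155), control 3 (0.0944), knockout 1 (0.199) or knockout 2 (0.266), and kept without knockout 3 (0.0185). The log2 fold change ran from 0.88 to 1.00 over these fits.

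**Figure D1:**
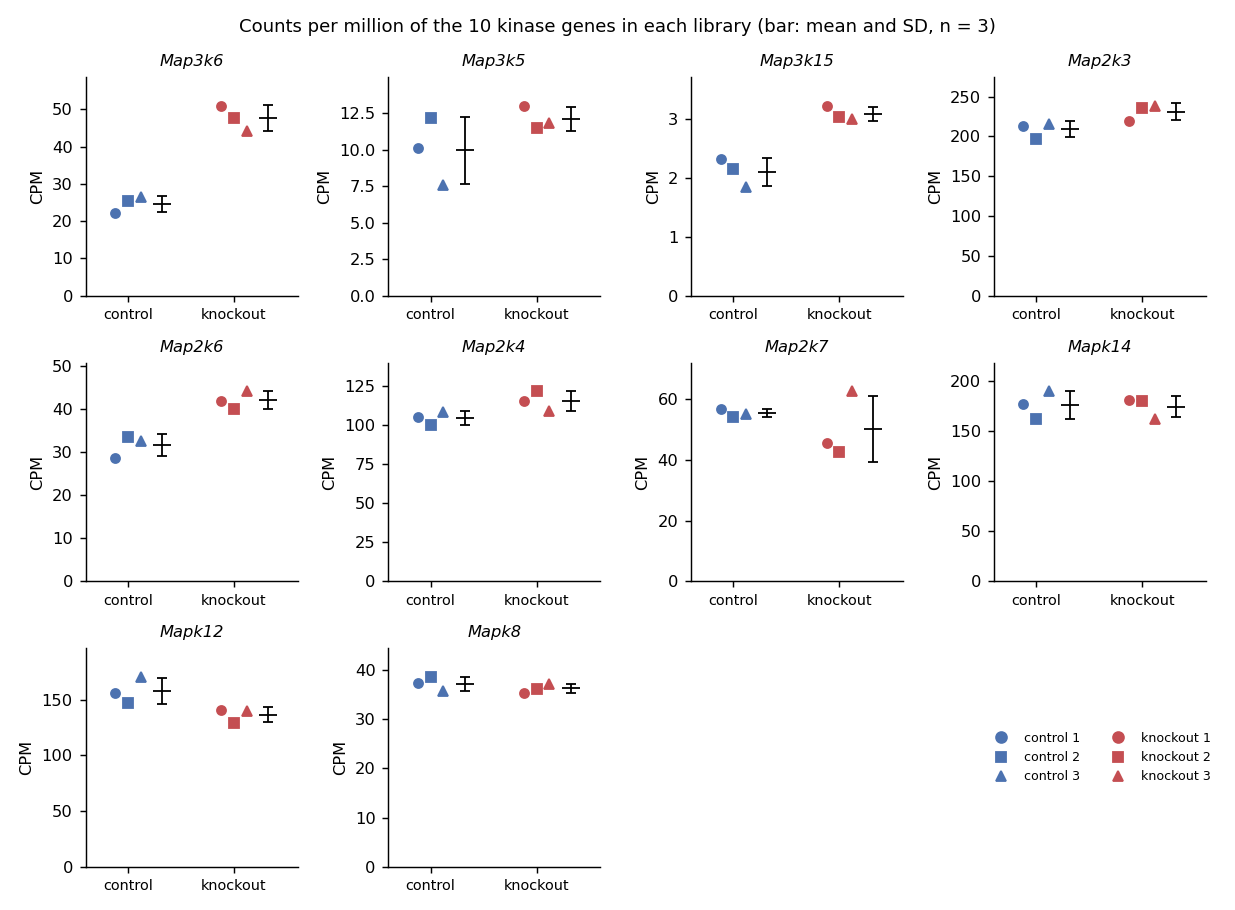
CPM (vertical axes, each from 0) of the 10 kinase genes in the 3 control and 3 knockout libraries. Points are libraries, with the same symbol for the same replicate number, and the bar beside each group is the mean with its SD; Map3k6 lies between 44.2 and 51.0 CPM in knockouts and between 22.2 and 26.5 CPM in controls.

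Map3k6 (Entrez 53608) lies on the plus strand of chromosome 4, from 133237979 to 133252929 as RefSeq places it on GRCm38.p6 (mm10). A pseudogene, Fcnc-ps, overlaps it and was not analysed here. The neighbour on the other strand, Sytl1, a synaptotagmin-like protein gene, ends 161 bases away. It stood at 0.272 ± 0.153 CPM in controls, against 0.271 ± 0.0990 CPM in knockouts (SD, n = 3 each). Whether counting used the strand is not given in the sources used here.

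The other ASK genes had positive log2 fold changes, and neither passed the test. Map3k5, the best-studied kinase of the group, had 10.1, 12.1 and 7.59 CPM in controls 1 to 3 and 13.0, 11.5 and 11.8 CPM in knockouts 1 to 3. Control 2 was above knockouts 2 and 3, so the groups overlapped, and control 3 was the lowest library. The log2 fold change came to 0.28 with an SE of 0.17 (edgeR adjusted p = 0.570), and it was 0.12 without control 3 and 0.45 without control 2. Control 3 is also the library with the low slow-fibre sum given above, and the part of fibre type in the Map3k5 level was not tested.

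Map3k15 was the least abundant member. It had 116, 139 and 122 reads in controls 1 to 3 and 210, 153 and 164 reads in knockouts 1 to 3, or 2.31, 2.15 and 1.85 CPM against 3.22, 3.03 and 2.99 CPM. All knockouts were above all controls, with a log2 fold change of 0.55 (SE 0.17) that did not pass (edgeR adjusted p = 0.353). The gene lies on chromosome X (159988204 to 160123346, plus strand) and overlaps Pdha1, a subunit gene of pyruvate dehydrogenase on the minus strand. Pdha1 was far more abundant, at 842 ± 122 CPM in controls, against 920 ± 50.2 CPM in knockouts (SD, n = 3 each; log2 fold change 0.13, edgeR adjusted p = 0.720). The share of reads that could have been assigned to the wrong gene of this pair was not tested.

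Within the ASK tier, Map3k6 was the leading transcript by length-scaled level in every library. It made up 68.0%, 68.0% and 77.0% of the summed FPKM of the 3 genes in controls 1 to 3, against 78.9%, 79.6% and 78.0% in knockouts 1 to 3. Control 3 lay close to the knockouts, and controls 1 and 2 lay lower. Map3k5 made up 24.9%, 26.2% and 17.7% in controls and 16.2%, 15.4% and 16.7% in knockouts. The sum of the tier was 8.11 ± 0.781 FPKM in controls and 13.4 ± 1.07 FPKM in knockouts (SD, n = 3 each).

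The MAP2K genes that act on p38 had positive log2 fold changes, and neither passed the test. Map2k6, which encodes MKK6, a specific activator of p38, had 28.7, 33.5 and 32.6 CPM in controls 1 to 3 and 41.9, 40.0 and 44.2 CPM in knockouts 1 to 3. The gap between the groups was wider than the range within either group. Its means were 31.6 ± 2.54 and 42.0 ± 2.09 CPM (SD, n = 3 each), with a log2 fold change of 0.41 (SE 0.087). It did not pass (edgeR adjusted p = 0.241). DESeq2 called it by its Wald test (adjusted p = 0.00939).

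Map2k3, which encodes MKK3, the close relative of MKK6, was the most abundant member by FPKM. It had 213, 197 and 216 CPM in controls, against 219, 236 and 239 CPM in knockouts, with a log2 fold change of 0.15 (SE 0.080, edgeR adjusted p = 0.533). The gap between the groups in CPM was narrow, and in FPKM the groups overlapped, since control 1 lay above knockout 1 (99.4) and below knockouts 2 (100.4) and 3 (108). Map2k3 exceeded Map2k6 by 7.08, 5.62 and 6.31 times in FPKM in controls 1 to 3 and by 4.98, 5.62 and 5.15 times in knockouts 1 to 3.

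The MAP2K genes that act on JNK had log2 fold changes of opposite sign, and neither passed the test. Map2k4 encodes MKK4, which phosphorylates JNK and can also phosphorylate p38. It had 105, 99.6 and 108 CPM in controls, against 115, 121 and 109 CPM in knockouts (log2 fold change 0.14, SE 0.080, edgeR adjusted p = 0.534). Knockout 3 lay just above control 3, so the lack of overlap rested on a narrow gap.

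Map2k7 encodes MKK7, which is specific for JNK, and it was the most uneven member among knockouts. Controls held 56.9, 54.1 and 55.3 CPM, a coefficient of variation of 2.47%, and knockouts 1 to 3 held 45.5, 42.6 and 62.7 CPM, a coefficient of variation of 21.7%. Knockouts 1 and 2 were below every control and knockout 3 was above every control. The log2 fold change came to -0.14 with an SE of 0.14 (edgeR adjusted p = 0.741), and it was -0.33 without knockout 3 (adjusted p = 0.119), -0.036 without knockout 2 and -0.079 without knockout 1. The other 9 members had knockout coefficients of variation of 7.15% or less.

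None of the 3 MAP kinases passed the test, and Mapk12 was the one whose groups did not overlap. Mapk12 encodes p38 gamma, the p38 form enriched in skeletal muscle, and had 156, 147 and 170 CPM in controls, against 141, 129 and 140 CPM in knockouts. All knockouts were below all controls in CPM, and in FPKM the gap was wider, with 83.9, 81.4 and 87.3 against 73.2, 62.8 and 72.8. The log2 fold change was -0.21 (SE 0.088), and it did not pass (edgeR adjusted p = 0.421).

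Mapk14 encodes p38 alpha, the broadly expressed form, and stood at 176 ± 14.0 CPM in controls, against 174 ± 10.2 CPM in knockouts (SD, n = 3 each). The individual values were 176, 162 and 190 CPM against 181, 179 and 162 CPM, so the groups overlapped throughout, and the log2 fold change came to -0.014 with an SE of 0.091 (edgeR adjusted p = 0.968). Mapk8 encodes JNK1 and had 37.2, 38.5 and 35.6 CPM in controls, against 35.2, 36.2 and 37.1 CPM in knockouts (log2 fold change -0.037, SE 0.071, adjusted p = 0.876). Both differences were smaller than the spread between libraries of a group. The ratio of Mapk14 to Mapk12 in FPKM was 0.602, 0.595 and 0.593 in controls and 0.686, 0.745 and 0.620 in knockouts, higher in every knockout than in every control.

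**Figure D2:**
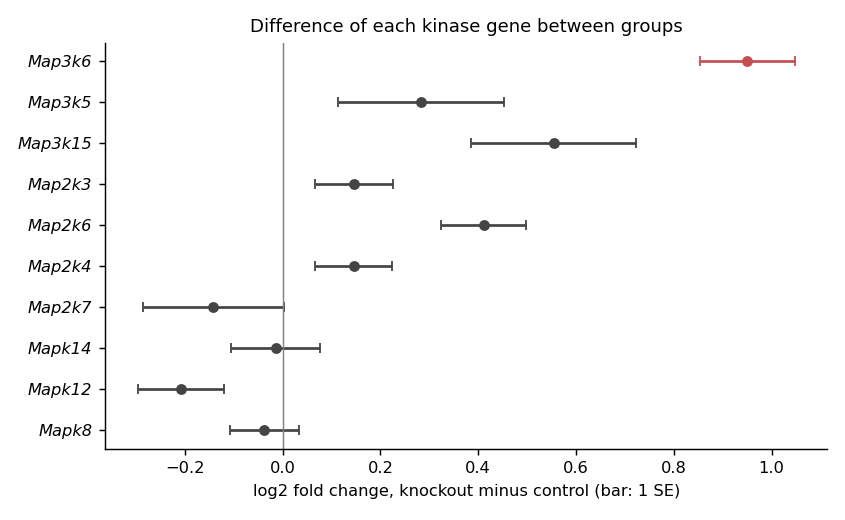
Log2 fold change (knockout minus control, horizontal axis) of each of the 10 kinase genes from the edgeR fit, with bars of 1 SE and Map3k6 in red. Map3k6 stands at 0.95, Map3k15 at 0.55 and Map2k6 at 0.41, and Mapk12 is the lowest at -0.21.

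Read together, the log2 fold change was above 0 for 6 of the 10 members, where 49.3% of all tested genes were above 0, and below 0 for 4. The members' median was 0.15, and that of all tested genes was -0.0037. By edgeR at an adjusted p under 0.05, 1 was called higher and 0 lower. At an unadjusted p under 0.05, 3 were higher (Map3k6, Map2k6 and Map3k15) and 1 lower (Mapk12), where 6.56% of all tested genes were higher and 5.07% lower. DESeq2 called 2 members higher and none lower, limma-voom 1 higher and none lower. The groups did not overlap in CPM for 5 members in the higher direction and 1 in the lower direction, where the shares over all tested genes were 8.38% and 8.87%, or 17.3% in either direction. In FPKM the 5 became 4, since Map2k3 overlapped. As the set was built around this contrast, these counts describe it and support nothing further. A change in the number of cells of a type and a change in RNA per cell, up or down, cannot be told apart in these whole-muscle libraries.

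By length-scaled level Map3k5 and Map3k15 were the lowest of the set in both groups, and Map3k6 lay near Mapk8 or above it. In controls the order by mean FPKM was Map2k3 (97.4), Mapk12 (84.2), Mapk14 (50.2), Map2k4 (28.0), Map2k7 (18.1), Map2k6 (15.5), Mapk8 (6.59), Map3k6 (5.74), Map3k5 (1.88) and Map3k15 (0.488). The control libraries of Mapk8 and Map3k6 overlapped (6.03 to 7.14 against 5.19 to 6.13), and every other pair of neighbours in this order was apart. In knockouts Map3k6 (10.6) came above Mapk8 (6.08) with no overlap, and Map2k6 (19.6) came above Map2k7 (15.6) with overlap. Map2k3 exceeded Map3k6 by 19.3, 15.6 and 16.3 times in FPKM in controls 1 to 3 and by 8.60, 9.89 and 10.8 times in knockouts 1 to 3.

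**Figure D3:**
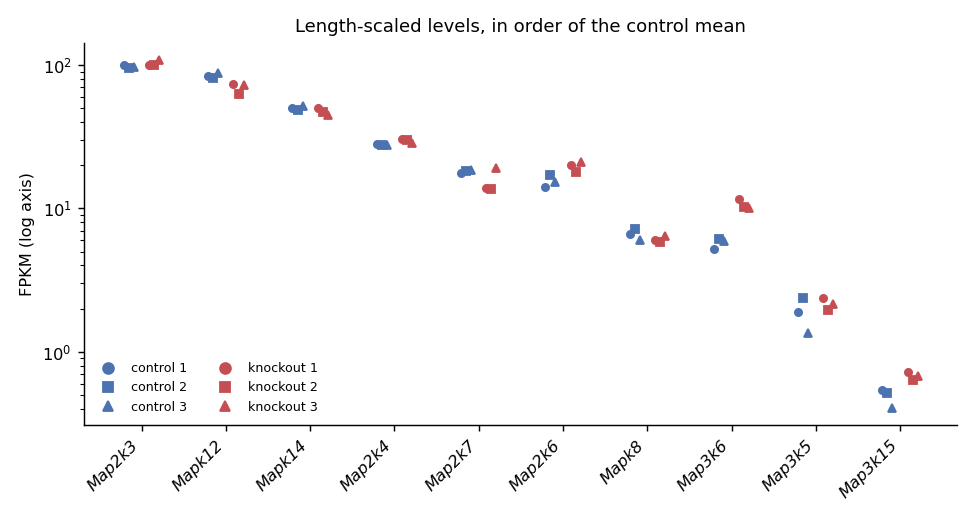
FPKM (log axis) of the 10 kinase genes in every library, ordered from left to right by the control mean. Blue symbols are controls and red symbols knockouts; Map3k6 overlaps Mapk8 in controls and lies above it in knockouts, and Map3k5 and Map3k15 are the 2 lowest in both groups.

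Around these kinases, 7 lists of pathway genes were read, with 109 genes in the table and 105 tested. No gene of any of them was called by edgeR at an adjusted p under 0.05. Before adjustment, 4 were higher and 10 lower at p under 0.05, beside 6.56% and 5.07% of all tested genes. DESeq2 called 1 of them higher and 3 lower, of 210 and 80 it called over the whole table, and limma-voom called 0. Of the 105, 54 had log2 fold changes above 0 and 51 below 0. The groups did not overlap for 7 genes in the higher and 15 in the lower direction, where the shares over all tested genes were 8.38% and 8.87%. Summed CPM (without TMM scaling) was lower in every knockout for the phosphatase list (754 to 788, controls 818 to 1021). The same held for ERK arm kinases (698 to 714, controls 787 to 820) and other p38 and JNK kinases (61.6 to 64.2, controls 68.8 to 70.4). TMM factors ran from 0.936 (knockout 2) to 1.07 (control 2), wider than the gaps of both these lists, so their separation is not kept with TMM scaling. Mapk9, most of the latter sum, overlapped in TMM-scaled CPM (65.1 in knockout 2, 62.1 in control 2). Summed CPM was higher for ASK regulators (2725 to 2935, controls 2505 to 2691), and the remaining lists overlapped. Of the ASK regulators, Txnip alone held 1002 TMM-scaled CPM in knockout 3, against 496 to 660 in the other libraries. The place of knockout 3 above the controls in that sum rested on this gene. Whether other gene sets differ as much was not tested.

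The 16 tested genes of the MAP3K class outside the ASK group had 6 positive and 10 negative log2 fold changes and a median of -0.10, which ran from -0.17 without control 1 to -0.028 without control 2. Those with the smallest p, both lower, were Map3k3, which encodes MEKK3 (37.2 ± 0.620 CPM in controls, against 29.9 ± 2.06 CPM in knockouts, SD, n = 3 each; -0.32, edgeR adjusted p = 0.295), and Map3k11, the mixed-lineage kinase MLK3 (20.8 ± 2.11 and 16.1 ± 2.19 CPM; -0.37, adjusted p = 0.367). Of the other p38 and JNK genes 3 were tested, 1 positive and 2 negative, with a median of -0.0052, -0.13 without control 2 and 0.20 without control 3. Mapk9, which encodes JNK2, was at 65.0 ± 2.97 and 61.1 ± 3.83 CPM (-0.091, adjusted p = 0.702). Mapk10, the JNK form of nervous tissue and heart, stayed below 1 CPM in every library and was listed at 0 in control 3, so its fold change is not given.

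Kinases of the neighbouring ERK arm had 3 positive and 8 negative log2 fold changes among 11 tested and a median of -0.082 (-0.15 without control 2, -0.0078 without knockout 3). Braf, a kinase of the MAP3K tier of that arm, had 12.4, 14.2 and 11.7 CPM in controls, against 14.6, 16.5 and 16.6 CPM in knockouts, with a log2 fold change of 0.31 (SE 0.11, edgeR adjusted p = 0.363). All its knockouts were above all its controls in CPM, and in FPKM the groups overlapped.

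Regulators of the ASK kinases (thioredoxins, 14-3-3 proteins, TRAF adaptors and others) had 16 positive and 8 negative log2 fold changes among 24 tested, with a median of 0.034 (0.0059 without knockout 2, 0.065 without knockout 3). Traf2, an adaptor that links tumour necrosis factor receptors to ASK1, had 21.6, 14.0 and 21.5 CPM in controls, against 11.9, 13.9 and 13.8 CPM in knockouts (log2 fold change -0.53, edgeR adjusted p = 0.363). Control 2 was level with knockouts 2 and 3, so the groups were separated by less than 0.1 CPM. Daxx, a death-domain-associated protein that binds ASK1, was at 17.1 ± 0.302 and 14.5 ± 0.720 CPM (SD, n = 3 each; -0.23, adjusted p = 0.367).

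Scaffolds and activators of JNK and p38 had a median of 0.057 over 16 tested genes, with 9 positive and 7 negative, and the median was -0.10 without control 1 and 0.12 without knockout 3. Tab1, which binds p38 alpha and promotes its autophosphorylation, was at 21.0 ± 2.08 and 15.4 ± 2.12 CPM (SD, n = 3 each; -0.45, edgeR adjusted p = 0.326), with all knockouts below all controls.

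Substrates of p38 and JNK had 12 positive and 11 negative log2 fold changes among 23 tested and a median of 0.0043 (-0.045 without knockout 3, 0.0098 without control 1). Jun, the transcription factor after which JNK is named, had 108, 112 and 80.1 CPM in controls, against 124, 173 and 117 CPM in knockouts (0.47, edgeR adjusted p = 0.396), and without knockout 2 the log2 fold change was 0.28. Sh3bp5, the mitochondrial JNK-binding protein Sab, had 31.8, 39.8 and 34.1 CPM against 32.5, 25.3 and 15.4 CPM (-0.53, adjusted p = 0.462), so knockout 1 lay within the controls and knockout 3 far below them. Without knockout 3 its log2 fold change was -0.28, and without knockout 1 it was -0.79.

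The 12 tested Dusp and Ppm1 genes, listed as phosphatases of p38 and JNK, had 7 positive and 5 negative log2 fold changes. Their median was 0.014, -0.10 without control 3 and 0.071 without control 2. Whether each of them acts on these kinases was not tested. Dusp10, a phosphatase of p38 and JNK, had 33.5, 85.9 and 50.0 CPM in controls, against 20.0, 19.3 and 22.6 CPM in knockouts. Every knockout was below every control, and the controls spread widely while the knockouts lay close together. Its log2 fold change came to -1.45 with an SE of 0.31 (edgeR adjusted p = 0.241), and DESeq2 called it (adjusted p = 9.22e-05). Dusp1, the phosphatase MKP-1, was at 106 ± 18.2 CPM in controls, against 74.1 ± 5.77 CPM in knockouts (SD, n = 3 each; -0.52, edgeR adjusted p = 0.305; DESeq2 adjusted p = 0.0259).

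**Figure D4:**
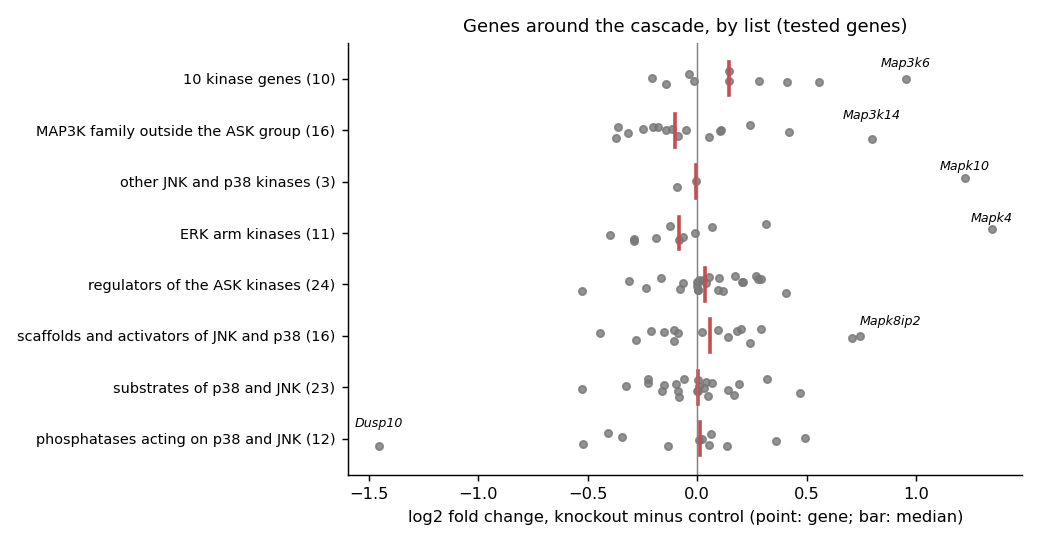
Log2 fold change (knockout minus control, horizontal axis) of each tested gene of the 10 kinase genes and of 7 pathway lists, with the number tested in parentheses. Points are genes, red bars are medians (0.15 for the 10 kinase genes and between -0.10 and 0.057 for the lists), and some genes beyond 0.6 in either direction are named; Mapk10, Mapk4 and Mapk8ip2 are genes with few reads.

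Markers of other cell types were read beside these values. Of 54 tested marker genes of all lists edgeR called 0, DESeq2 2 (the fibroblast marker Col3a1 higher and the adipocyte marker Lep lower) and limma-voom 0. At an unadjusted p under 0.05 by edgeR, 4 were higher and 1 was lower, beside 6.56% and 5.07% of all tested genes. Of the 4 higher, 3 were among the 7 fibroblast markers and 1 among the macrophage and leukocyte markers. Fibroblast markers summed to between 1410 and 2385 CPM among controls, against 2175 to 2607 among knockouts, with 7 of 7 genes positive. Macrophage and leukocyte markers ran from 106 to 190 against 100.5 to 174.5, with 7 of 8 positive. Endothelial and mural markers ran from 621 to 868 against 631 to 758, with 4 of 8 positive. Adipocyte markers ran from 44.9 to 177 against 75.7 to 232 (3 of 5 positive) and Schwann cell markers from 112 to 287 against 87.5 to 351 (1 of 5 positive). Erythroid markers ran from 210 to 248 against 190 to 945, the highest in knockout 2 (3 of 4 tested positive), and slow-fibre genes had 5 of 7 positive. No list had a gene at 0 in every library. Their part in the level of Map3k6 was not tested.

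The genes whose profile over the 6 libraries was closest to that of Map3k6 were Fgfr3, Ucp2, Ror1, Rin3 and Atoh8. Closeness was the root mean squared difference between log2 CPM profiles, each with its own mean removed, and it was 0.111, 0.126, 0.128, 0.132 and 0.132 in that order, against a median of 0.523 over all tested genes. All 5 had every knockout above every control, which follows from the choice. Fgfr3, a fibroblast growth factor receptor, had 7.22, 8.24 and 7.31 CPM in controls, against 14.8, 14.6 and 11.8 CPM in knockouts. Like Map3k6 it was lowest in knockout 3 among the knockouts. Ucp2, a mitochondrial uncoupling protein, had 15.6, 21.6 and 20.5 CPM against 34.9, 37.8 and 38.1 CPM, and was highest in knockout 3. Ror1 (an orphan receptor tyrosine kinase, 3.37 and 7.18 CPM), Rin3 (a Rab5 exchange factor, 13.4 and 23.8 CPM) and Atoh8 (a basic helix-loop-helix factor, 6.09 and 10.2 CPM) completed the group. Among the other members the closest were Map3k15 (0.263) and Map2k6 (0.285), and the farthest was Map2k7 (0.607).

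**Figure D5:**
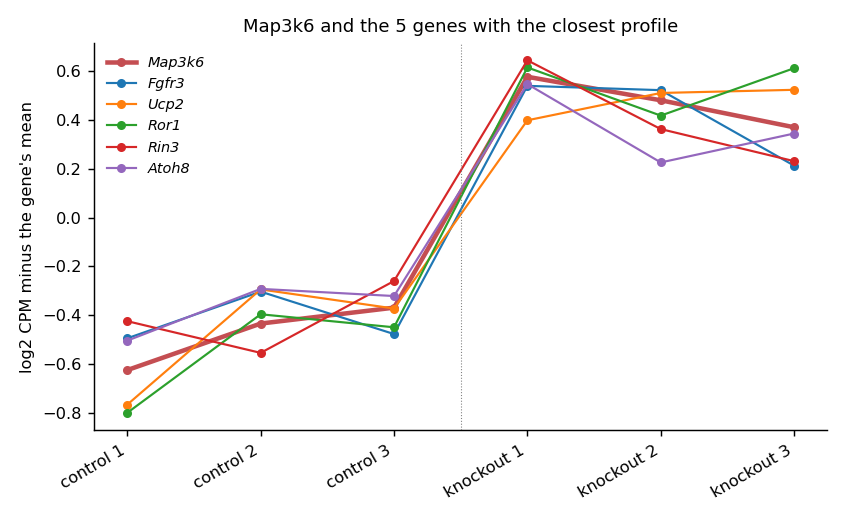
Log2 CPM minus each gene's mean (vertical axis) in the 3 control and 3 knockout libraries for Map3k6 (thick line) and the 5 genes with the closest profile. The lines join libraries of 1 gene and imply no order; all 6 genes are below 0 in controls and above 0 in knockouts.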

How the data were processed

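Poly(A)-selected RNA of gastrocnemius muscle from 3 control and 3 knockout mice was sequenced, 1 strand-preserving library per sample, per the labels' protocols. The deposited table gives read counts (whole numbers, not normalized), FPKM and TPM per gene, made by the authors per the file headers. StringTie 1.3.4d, Bowtie2 2.3.4.1, FastQC 0.11.7 and bcl2fastq 2.20.0 are listed, without roles, beside mm10 in the submitters' processing notes. How reads were counted is not given in the sources used here. TPM was not used.

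The counts were tested with edgeR 4.0.16 (R 4.3.3): filterByExpr with a minimum count of 10, TMM scaling, quasi-likelihood test, Benjamini-Hochberg adjustment over 14109 tested genes, threshold 0.05. A further 10423 genes were not tested. Standard errors came from the F statistic, CPM values were TMM-scaled, and 2 was the prior count behind log2 CPM. Summed marker levels used total counts. A count of 0 allows up to 3 counts, between 0.0454 and 0.0598 CPM, for counting error only. Libraries of a group differed by more than sampling noise (34.9 or more chi-square units per degree of freedom). Litters are not named, so the p-values rest on the spread between these samples, which may be technical, and 3 against 3 libraries allow an exact permutation p of 0.1 at best.

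Alternatives were DESeq2 size factors, upper-quartile scaling, no filter, a filter of 1 CPM, DESeq2 1.42.0, limma-voom (limma 3.58.1), limma on log2 of FPKM plus 1 or 0.1, a replicate term, each library left out, and a threshold of 0.1. The members and lists were chosen with earlier results of these data known. Named genes were the 10 members, Usp21, of each pathway list the genes called or else the 2 with the smallest p, tested neighbours (within 5 kb of Map3k6, or overlapping another member), and the 5 genes closest in profile to Map3k6. Some genes this rule picks are not reported here. Map3k20 and Map3k21 were matched by identifier to older symbols.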

Additional observations from a re-analysis of the deposited data

How the results depend on the processing

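Against 5 genes called higher and 3 lower by edgeR, DESeq2's Wald test called 210 and 80, limma-voom 4 and 1, limma on FPKM plus 1 and plus 0.1 each 1 and 0, and the replicate block 0 and 0. Leaving out single libraries gave between 1 and 120 higher and between 0 and 21 lower, the highest counts without knockout 3. Members called higher numbered 2 with DESeq2, 0 with either FPKM scale and 0 with the replicate block, and between 0 and 1 without single libraries. Members called lower were 0 in every fit run. Same-numbered libraries did not deviate together (r = -0.008, -0.186 and -0.098), so the numbers give no pairing and the block, which leaves fewer degrees of freedom, is not read as a weaker effect. Map3k6 had a log2 fold change between 0.78 and 1.00 in all 15 alternatives and was called in 7. Directions changed for 2 genes, both with small differences. Mapk14 was at 0.043 without control 3 and 0.033 without knockout 3 (lowest -0.080, without control 2), and Sytl1, a gene with few reads, was at 0.078 with limma-voom, 0.058 with the replicate block and between -0.35 and 0.53 without single libraries (0.53 without control 3, 0.087 without knockout 1, 0.16 without knockout 2). The cause of these shifts was not tested. Depth limits the text most for Map3k15, with 116 to 210 reads per library, and for Mapk10 and Sytl1, below 1 CPM.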

Other observations

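The values in this paragraph belong to genes chosen after their values were seen. By length-scaled level, the leading upstream kinase among the MAP3K genes read was Zak (Map3k20), a kinase that senses ribosome stress, with a mean of 45.3 FPKM in controls and 44.8 FPKM in knockouts, against 5.74 and 10.6 FPKM for Map3k6. Its log2 fold change was 0.055 (SE 0.099), smaller than its error. Map3k14, which encodes the NF-kappa-B-inducing kinase, was at 2.19 and 3.60 FPKM with a log2 fold change of 0.80 (SE 0.40) and overlapping groups. Its knockouts 1 to 3 stood at 5.38, 3.87 and 1.54 FPKM, so knockout 3 lay below every control (2.01, 2.76 and 1.805). Dusp16, a JNK phosphatase, went the other way from Dusp10, with a log2 fold change of 0.36 (SE 0.10) and every knockout above every control in CPM. Txnip, a binding partner of thioredoxin, was at 205 and 260 FPKM, with a log2 fold change of 0.41 (SE 0.20) and overlapping groups. Knockout 3 stood highest for Txnip at 352 FPKM, and knockouts 1 and 2 (231 and 196) lay within the controls (212, 233 and 172). None of these passed by edgeR at an adjusted p under 0.05 over all tested genes.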
